A study of Mus musculus with 34 samples.

Results

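CAD cells are a mouse catecholaminergic neuronal line of neuroblastoma origin that stops dividing and grows processes once serum is taken away. The comparison described here asks which transcripts differed when a miR-138 mimic, a synthetic double-stranded RNA that acts as the mature miRNA, was put into CAD cells that had then been without serum for 2 days. It rests on 4 of the 34 libraries of the series, chosen by their titles: 2 libraries of cells given the miR-138 mimic and 2 of cells given pUC19, a bacterial cloning plasmid that served as transfection control. All 4 came from cells labelled mir-138 DKO (double knockout), plated on poly-lysine, and all had been transfected 48 h before the medium was changed to one with no fetal bovine serum. The mimic was used at 3 nM with a lipid reagent, and the amount of pUC19 DNA is not given in the labels. The control is therefore a DNA plasmid and not a mimic with an unrelated seed, and 2 libraries of cells given a miR-137 mimic at the same dose and time serve as a second point of reference. The same 2 transfections were also sampled when serum was still present, 2 libraries each, and 2 further pairs of libraries from another experiment, cells labelled mir-138 DKO and wild-type (WT) cells 1 day after serum removal, are set beside the mimic result. Whether the 2 libraries of a group are separate cultures is not stated, so p-values below measure the spread between these libraries, which may be technical.

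A miRNA guides an Argonaute protein to messenger RNAs through its seed, the bases near its 5' end that pair with the target, most often in the part of the message behind the coding sequence. The bound messages are shortened at their tail, decay faster and are translated less, so that direct targets of an added mimic are known to fall in RNA-seq. miR-138 is abundant in brain and is known there for limiting the depalmitoylating enzyme Lypla1 and for shaping dendritic spines, and in tumour cells for restraining cyclins and cell movement. The labels name no arm of the hairpin. The mature 5p strand of miR-138, the arm with these reported targets, is shown next to miR-137-3p because the cells given that mimic are used below and the seeds, in capitals (bases 2 to 8), differ. The sequences are RefSeq's (GRCm38.p6, 5' to 3').
mmu-miR-138-5p: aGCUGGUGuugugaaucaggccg
mmu-miR-137-3p: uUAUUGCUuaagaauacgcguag
The same miR-138-5p strand is encoded at Mir138-1 (chr9:122682898-122682920, plus strand) and Mir138-2 (chr8:94324312-94324334, plus strand), and miR-137-3p at Mir137 (chr3:118433901-118433923, plus strand). A perfect seed match in a target reads CACCAGC for miR-138-5p and AGCAATA for miR-137-3p. No transcript sequence was used here, so matches were not counted.

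Polyadenylated RNA does not measure a mimic, and the dose that reached the cells was not measured. Reads over the hairpin gene Mir138-1 numbered 43 and 40 in the mimic libraries and 30 and 29 in the pUC19 libraries (log2 fold change 0.56, adjusted p = 0.057). Mir138-2 and Mir137 had 0 reads in all 14 libraries of this experiment. Some reads of cells labelled DKO were thus assigned to Mir138-1, and no value here shows how much mature miR-138 the cells had.

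The change was broad. Of 12655 genes tested, 3914 were higher with the mimic (30.9%) and 3937 lower (31.1%), together 7851 or 62% of all genes tested, by edgeR's quasi-likelihood test at a false discovery rate of 0.05. Most changes were small: the median size among called genes was 0.52 on the log2 scale, 841 genes were at least 2-fold higher and 568 at least 2-fold lower, and 206 and 82 passed 4-fold. The median over all genes tested was 0.00192. The depth was 15386337 and 13040692 reads in genes for the mimic and 16954189 and 14527227 for pUC19, and within each group the 2 libraries differed by more than counting noise (chi-square per degree of freedom 3.84 for the mimic and 5.67 for pUC19). Levels below are CPM, read counts scaled to a common library size of 1000000 reads in genes, given as replicate 1 and replicate 2, and errors of log2 fold changes are standard errors (SE). With so many genes called, a count for a gene list means little until it is read against those shares. In bulk RNA, fewer cells of a kind and less RNA per cell cannot be told apart.

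**Figure D1:**
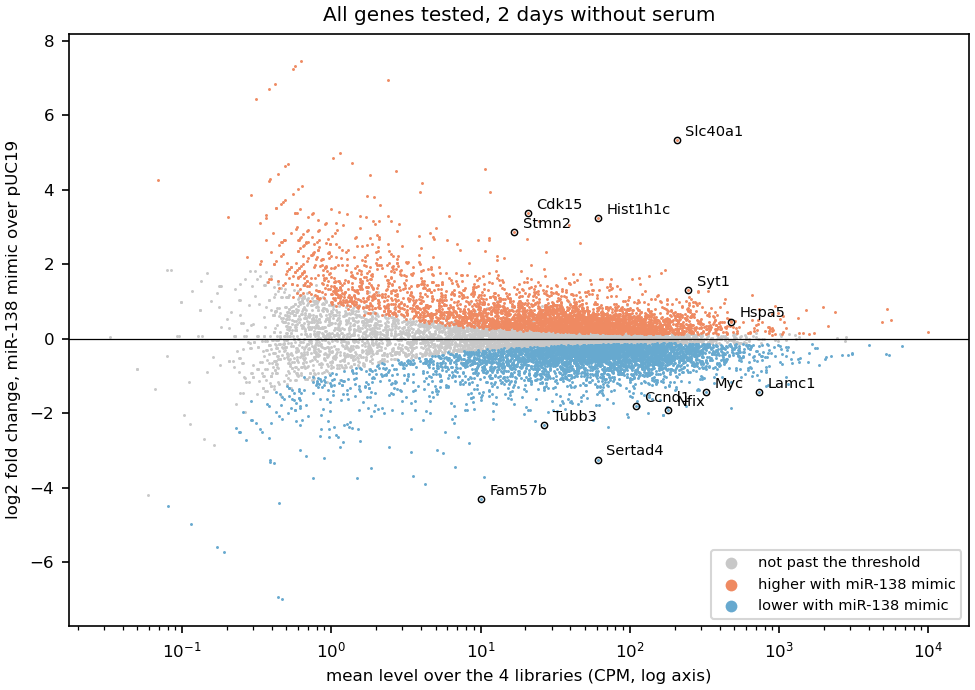
Each point is 1 of the 12655 genes tested, with its mean level over the 4 libraries (CPM, log axis) against its log2 fold change of miR-138 mimic over pUC19, coloured by whether it passed the threshold. Slc40a1 stands apart among well-measured genes at a log2 fold change of 5.34. Fam57b, at -4.30, is the lowest of the genes labelled in the figure. Points at the far left with large values rest on few reads.

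The neuronal and sympathetic identity of the line was checked against its defining markers. Hand2 stood at 890.3 and 1002 CPM in mimic libraries and 1077 and 1069 CPM in pUC19 libraries, and Phox2a at 182 and 235 CPM with the mimic and 188 and 193 CPM with pUC19. Both are transcription factors of sympathetic neurons. Th, the rate-limiting enzyme of catecholamine synthesis, was close to absent, at 0.797 and 0.648 CPM against 0.59 and 0.544 CPM, and Chga and Nefm had 23 and 1 reads over the 4 libraries. Markers of other cell types were low. The 12 glial markers summed to 17.9 and 19.2 CPM with the mimic and 9.8 and 11 CPM with pUC19, with Olig1, Olig2 and Sox10 at 0 reads, and of the 3 tested only Aqp4 was higher (14.3 and 14.9 CPM against 6.79 and 6.12 CPM). The 7 fibroblast markers summed to 39.1 and 38.8 CPM with the mimic and 27.5 and 30 CPM with pUC19, with Col3a1 at 0 reads and, of 6 tested, Dcn higher and Lum lower. The 10 blood and muscle markers summed to 0.552 and 0.72 CPM with the mimic and 0.472 and 0.68 CPM with pUC19, with Ptprc, Aif1, Hbb-bs and Myod1 at 0 reads. Their part in the changes below was not tested.

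The largest rise belonged to Slc40a1, which encodes ferroportin, the only known exporter of iron from mammalian cells. It had 429 and 381 CPM in mimic libraries, against 9.74 and 10.3 CPM in pUC19 libraries, a log2 fold change of 5.34 ± 0.09 (adjusted p = 6.25e-19). Both mimic libraries lay far above both controls. Several of the next genes are neuronal: Stmn2, a regulator of growing microtubules, had 26.7 and 32.5 CPM with the mimic and 3.25 and 4.97 CPM with pUC19. Scn3a, a voltage-gated sodium channel, had 39.5 and 31.8 CPM with the mimic and 5.14 and 6.05 CPM with pUC19. Ddc, the decarboxylase that turns L-DOPA into dopamine, had 19 and 20.8 CPM with the mimic and 3.31 and 2.79 CPM with pUC19. Elfn1, a postsynaptic adhesion protein, and Sstr2, a somatostatin receptor, were higher by 3.15 ± 0.14 and 2.66 ± 0.16 on the log2 scale. Myo7a, an unconventional myosin known from hair cells, was near absent with pUC19 (0.709 and 1.02 CPM) and reached 18.5 and 22.5 CPM with the mimic. Itpka, an inositol phosphate kinase that binds actin in neurons, and Cdk15, a little-studied kinase, rose by 3.29 ± 0.24 and 3.37 ± 0.15. The linker histone gene Hist1h1c had 101 and 122 CPM with the mimic and 12 and 11.4 CPM with pUC19, and Hist1h2bc had 71.7 and 68 CPM with the mimic and 9.15 and 7.48 CPM with pUC19. Histone genes have close copies, whose reads the counting may have left out. The rise of the mitochondrial tRNA gene mt-Tt rested on unequal libraries, with 14.2 and 3.67 CPM with the mimic and 1.3 and 1.02 CPM with pUC19, and its log2 fold change of 2.96 became 1.64 without mimic replicate 1 and 3.59 without mimic replicate 2. The mitochondrial share of reads was 2.39 and 2.28% in the mimic libraries and 1.45 and 1.69% in the pUC19 libraries, and its part in the mt-Tt result was not tested.

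The largest falls included membrane, cytoskeletal and secreted proteins. Fam57b, a gene of sphingolipid metabolism, had 1.04 and 0.864 CPM with the mimic and 15.8 and 22.4 CPM with pUC19 (log2 fold change -4.30 ± 0.25, adjusted p = 2.12e-11). Kcnt1, a sodium-activated potassium channel, had 1.59 and 1.37 CPM with the mimic and 17.2 and 22 CPM with pUC19. Fmnl1, a formin that builds actin filaments, had 0.797 and 1.51 CPM with the mimic and 11.2 and 13.5 CPM with pUC19. The groups of all 3 genes stood apart by several fold. Sertad4 was well measured on both sides, at 10.5 and 12.9 CPM with the mimic and 111 and 109 CPM with pUC19 (-3.24 ± 0.09), and so was Cdc42ep1, an effector of the small GTPase Cdc42, at 20.7 and 25.7 CPM with the mimic and 117 and 123 CPM with pUC19 (-2.38 ± 0.09). Tubb3, the neuronal beta-tubulin often used as a marker of differentiation, was also among the falls, with 8.95 and 8.86 CPM with the mimic and 37.8 and 51.6 CPM with pUC19 (-2.32 ± 0.13). The Nogo receptor gene Rtn4r fell by 2.27, the uridine phosphorylase gene Upp1 by 3.05, Cbr2 by 2.79, Tll2 by 2.64 and Ier5l by 2.51 on the log2 scale.

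**Figure D2:**
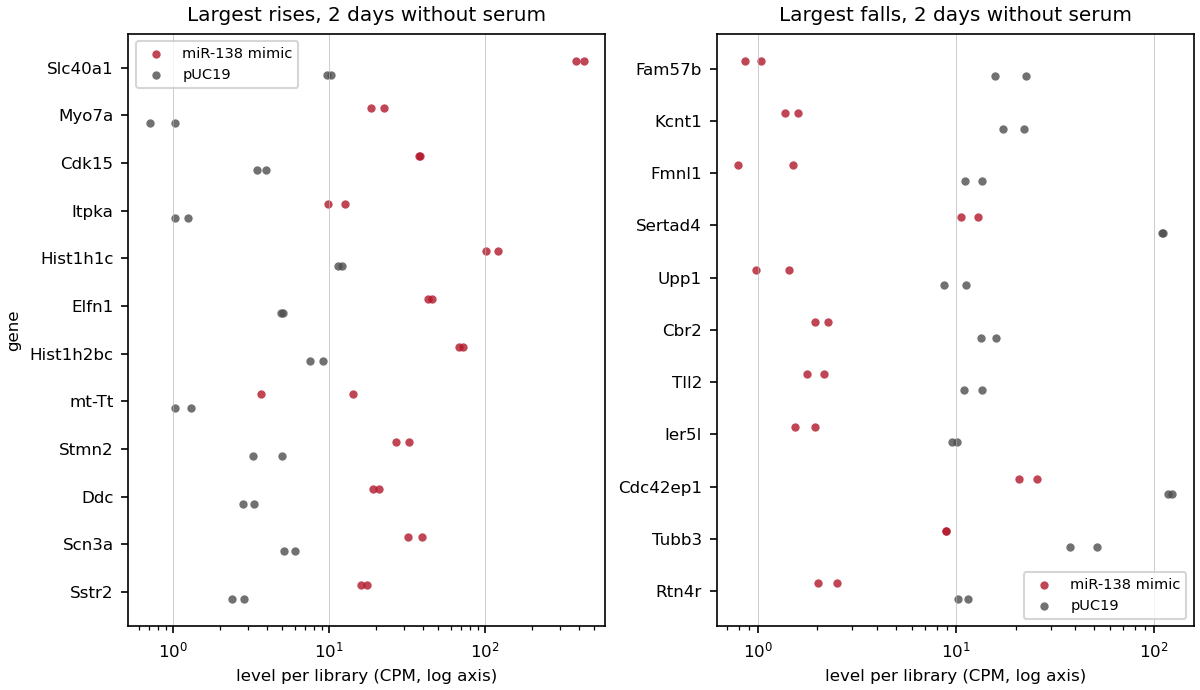
Levels in each library (CPM, log axis) of the genes with the largest rises (left) and falls (right) described in the text, miR-138 mimic in red above pUC19 in grey, 2 libraries each. The groups do not overlap, which the rule for naming these genes required, and mt-Tt shows the widest gap between replicates.

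Genes reported as miR-138 targets mostly fell. Of 32 listed, 28 were tested, and 23 were lower with the mimic (82.1%, against 31.1% of all genes tested), 2 were higher and 3 did not pass the test, with a median log2 fold change of -0.52. The 4 others, Cdk6, Fosl1, Twist2 and Aldh1a2, had at most 2 reads over the 4 libraries and were not tested. Nfix, a transcription factor of neural development, had 70 and 81 CPM with the mimic and 286 and 283 CPM with pUC19 (-1.92 ± 0.06, adjusted p = 1.11e-14). Ccnd1, cyclin D1, had 48.7 and 48.3 CPM with the mimic and 182 and 159 CPM with pUC19 (-1.81 ± 0.06). Ccnd3, cyclin D3, had 49.2 and 53.9 CPM with the mimic and 157 and 144 CPM with pUC19 (-1.55 ± 0.08). In all 3 genes both mimic libraries were well below both controls. Rara, a retinoic acid receptor, had 29.4 and 40.4 CPM with the mimic and 103 and 108 CPM with pUC19. Targets known from neurons moved less: Lypla1 had 71.3 and 68.9 CPM with the mimic and 127 and 109.5 CPM with pUC19 (-0.76 ± 0.08), and the deacetylase gene Sirt1 had 26.4 and 24 CPM with the mimic and 45.3 and 46.3 CPM with pUC19 (-0.86 ± 0.08). Ezh2, the methyltransferase of Polycomb repressive complex 2, fell by 0.80 and Sox9, a glial and progenitor factor, by 0.60. Rhoc, a small GTPase of cell movement, had 61 and 72.7 CPM with the mimic and 85.9 and 91.1 CPM with pUC19 (-0.41 ± 0.07), and Vim, vimentin, fell by 0.25 ± 0.06 (adjusted p = 0.0014). The 2 members that rose were the histone demethylase gene Kdm5b (0.28) and the actin regulator Limk1 (0.20), and that count of 2 became 1 without mimic replicate 2, without pUC19 replicate 1, with no filter or with the compared libraries alone.

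The same list was read in cells that differ by the knockout label. In that experiment 21.9% of 13630 genes tested were higher and 23% lower in cells labelled DKO than in WT cells 1 day after serum removal. Of the 28 targets tested there, 15 were higher in the cells labelled DKO, 8 lower and 5 not called, with a median of 0.25. Nfix stood out with a log2 fold change of 2.59 in the cells labelled DKO, Ccnd3 had 1.74, Sox9 1.61 and Ezh2 0.97, each of them lower with the mimic. Ccnd1 was lower in both, by -0.22 in the cells labelled DKO, and Lypla1 (0.21) and Sirt1 (0.13) did not pass the test there.

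**Figure D3:**
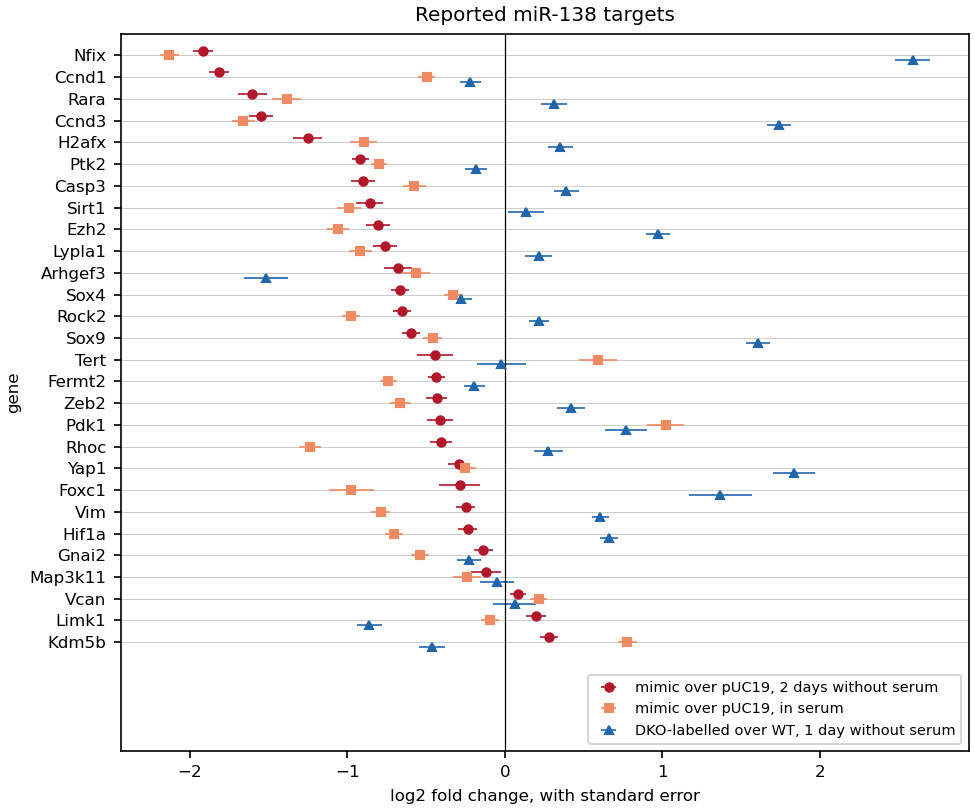
Log2 fold changes with SE of the 28 tested members of the reported miR-138 target list: mimic over pUC19 without serum (circles), mimic over pUC19 in serum (squares) and cells labelled DKO over WT (triangles). Most circles and squares lie left of 0, while triangles scatter to both sides with Nfix, Yap1, Ccnd3 and Sox9 at the far right.

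Cell cycle genes fell almost as a block. The MCM helicase, its loaders, the polymerases and the enzymes that make nucleotides form the DNA replication list: 29 of 30 were lower (96.7%, against 31.1% of all genes tested), 0 higher, and 1, Rfc2, was not called, with a median of -0.75. Tyms, thymidylate synthase, had 20.4 and 21.1 CPM with the mimic and 73 and 65.8 CPM with pUC19 (-1.75 ± 0.08, adjusted p = 5.95e-13). Cdt1, which licenses origins, had 89.5 and 89.5 CPM with the mimic and 226 and 192 CPM with pUC19 (-1.22 ± 0.07). The DNA ligase gene Lig1 fell by 1.22 and Pcna, the sliding clamp, by 1.14. Of 26 mitotic genes, 24 were lower (92.3%) and none higher, with a median of -0.54. Kif11, the motor that separates spindle poles, had 80.5 and 75.8 CPM with the mimic and 189 and 151 CPM with pUC19 (-1.13 ± 0.09). The kinase gene Aurkb had 44.4 and 44.5 CPM with the mimic and 94.3 and 83 CPM with pUC19. Mki67, the proliferation marker, had 375 and 299.6 CPM with the mimic and 581 and 467 CPM with pUC19. The groups did not overlap in any of these genes. Among 18 tested cyclins, kinases and inhibitors of the G1 phase, 12 were lower (66.7%) and 3 higher (16.7%). Besides the D cyclins, Cdk2 had 70.1 and 68.2 CPM with the mimic and 130.3 and 116 CPM with pUC19 (-0.83 ± 0.06). The inhibitor gene Cdkn1a (p21) was lower too, at 5.03 and 6.55 CPM with the mimic and 16.2 and 23.1 CPM with pUC19 (-1.76 ± 0.17). The retinoblastoma gene Rb1, the brake on E2F factors, was higher, at 82.6 and 74.1 CPM with the mimic and 33.4 and 34.7 CPM with pUC19 (1.21 ± 0.07). In cells labelled DKO against WT 26 of 30 replication genes and 26 of 26 mitotic genes were higher, and 0 of either list lower.

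Since these 2 lists moved together, their promoters were read in RefSeq's GRCm38.p6 table, which gives the 250 bases before and the 50 after each gene's start. The letters searched were those of the E2F site (TTTCCCGC, TTTCGCGC, TTTGCCGC and TTTGGCGC) and of the cell cycle homology region, or CHR (TTTGAA and TTCGAA), on both strands. Neither set of letters contains the other, and a match on the opposite strand appears below as its reverse complement. Of the 30 replication genes 23 matched the table, and 9 held the E2F letters (39.1%), against 408 of 9464 promoters of genes tested that matched (4.31%) and 2.32% of all 27025. Of the 26 mitotic genes 22 matched, and 18 held the CHR letters (81.8%), against 13.7% of promoters of genes tested and 19.4% of all. The E2F letters stood in 1 of the 22 mitotic promoters (4.55%) and the CHR letters in 6 of the 23 replication promoters (26.1%). A match is a run of letters and not a measured binding site. The promoters of Cdt1 (chr8:122567765-122568064, plus strand), Kif11 (chr19:37376132-37376431, plus strand) and Racgap1 (chr15:99651607-99651906, minus strand), a regulator of cytokinesis that fell by 0.66, are shown as examples of the 2 kinds, with the matched letters in capitals (E2F in Cdt1, CHR in Kif11 and Racgap1), 5' to 3' along the gene. They were picked because they hold a match: the windows of Tyms, Lig1 and Pcna, the other replication genes named above, hold 0 matches to the E2F letters.
Cdt1: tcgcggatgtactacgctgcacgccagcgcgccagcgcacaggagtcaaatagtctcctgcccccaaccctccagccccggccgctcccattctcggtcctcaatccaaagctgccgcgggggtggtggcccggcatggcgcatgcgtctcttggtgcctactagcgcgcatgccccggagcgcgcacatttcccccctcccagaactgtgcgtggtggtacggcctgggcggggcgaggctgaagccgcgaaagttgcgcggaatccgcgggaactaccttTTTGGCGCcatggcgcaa
Kif11: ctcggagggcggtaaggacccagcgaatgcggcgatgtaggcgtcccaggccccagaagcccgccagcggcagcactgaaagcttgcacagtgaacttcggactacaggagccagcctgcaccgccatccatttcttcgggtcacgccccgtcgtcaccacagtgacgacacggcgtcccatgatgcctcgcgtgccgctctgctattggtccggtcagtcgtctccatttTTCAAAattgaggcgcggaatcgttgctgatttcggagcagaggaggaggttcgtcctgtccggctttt
Racgap1: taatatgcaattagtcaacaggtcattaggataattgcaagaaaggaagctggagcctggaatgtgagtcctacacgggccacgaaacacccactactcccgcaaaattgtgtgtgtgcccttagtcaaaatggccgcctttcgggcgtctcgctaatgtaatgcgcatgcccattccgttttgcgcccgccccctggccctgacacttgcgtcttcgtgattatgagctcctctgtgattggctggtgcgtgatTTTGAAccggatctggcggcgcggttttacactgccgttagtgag

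Genes driven by growth factor signalling were lower as well. Of 24 tested immediate-early genes and feedback inhibitors of the ERK kinase pathway, 19 were lower (79.2%) and 0 higher, with a median of -0.56. Myc had 168 and 182 CPM with the mimic and 464 and 488 CPM with pUC19 (-1.44 ± 0.06, adjusted p = 2.04e-13). Ier3, an immediate-early gene linked to cell survival, had 34.7 and 40.6 CPM with the mimic and 137.2 and 170.4 CPM with pUC19. The feedback genes Spry1 and Dusp4 fell by 1.31 and 0.80, while Fos, Egr1 and Jund were among the 5 not called (-0.09, -0.08 and -0.04). Of 17 Notch and BMP response genes 7 were lower (41.2%), 2 higher (11.8%) and 8 not called, against 31.1% lower and 30.9% higher of all genes tested. The count of 2 was 1 without mimic replicate 2. Hes1, the Notch-induced repressor of neuronal differentiation, had 8.52 and 7.99 CPM with the mimic and 40.5 and 36.3 CPM with pUC19 (-2.22 ± 0.10). Id1, a BMP target that blocks basic helix-loop-helix factors, had 1.66 and 1.87 CPM with the mimic and 6.79 and 6.8 CPM with pUC19 (-1.95 ± 0.15).

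Neuronal genes split. Of 42 listed genes of neuronal structure and synapse 32 were tested, 16 were higher (50%, against 30.9% of all genes tested), 8 lower (25%) and 8 not called. Those that rose included genes of synaptic vesicles and of growing processes. Syt1, the calcium sensor of vesicle release, had 353 and 349.7 CPM with the mimic and 137.1 and 146 CPM with pUC19 (1.31 ± 0.06, adjusted p = 6.07e-13). Ncam1, a neural adhesion molecule, had 50.1 and 44.7 CPM with the mimic and 18.9 and 16.5 CPM with pUC19. Rab3a, a vesicle GTPase, and Gap43, a growth cone protein, rose by 1.43 and 1.23. Those that fell included 3 cytoskeletal genes: Tubb3, Mapt, the tau gene, with 10.5 and 12.6 CPM with the mimic and 32.9 and 37.9 CPM with pUC19, and Prph, the filament protein peripherin, with 382 and 547 CPM with the mimic and 921 and 1079 CPM with pUC19. Rab3a, Gap43, Mapt and Prph were singled out after their values were seen. In cells labelled DKO 37 of 38 tested members of the list were lower than in WT cells and 0 were higher. Among 17 tested genes of catecholamine synthesis and sympathetic identity 6 were higher (35.3%) and 4 lower (23.5%). These shares lie near those of all genes tested, 30.9% and 31.1%. Beside Ddc, Maoa, which breaks down amines, had 46.8 and 46.5 CPM with the mimic and 33.4 and 30.2 CPM with pUC19. Gata2, a sympathetic transcription factor, had 80.2 and 90.1 CPM with the mimic and 167 and 166 CPM with pUC19 (-0.97 ± 0.06). Dbh, which makes noradrenaline, had 16.9 and 19.8 CPM with the mimic and 13.6 and 22.2 CPM with pUC19, so the groups overlapped (adjusted p = 0.864).

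3 lists of organelle and defence genes leaned upward. Of 13 endoplasmic reticulum chaperones and their partners 11 were higher (84.6%), 1 lower and 1 not called, all changes being under 2-fold. Hspa5, the master chaperone BiP, had 575 and 526 CPM with the mimic and 408 and 392 CPM with pUC19 (0.46 ± 0.06, adjusted p = 1.02e-06). Calr, calreticulin, had 1243 and 1138 CPM with the mimic and 873 and 789.6 CPM with pUC19. The exception was Dnajc3, a co-chaperone that fell by 0.61. Of 26 genes of lysosome and autophagy 16 were higher (61.5%) and 5 lower, the 5 being 3 with DESeq2, unstranded counts or the compared libraries alone, 3 without mimic replicate 1 or mimic replicate 2, and 2 without pUC19 replicate 2. The protease gene Ctsb had 346 and 336 CPM with the mimic and 184 and 189.5 CPM with pUC19, and Lamp1, the main lysosomal membrane protein, 958 and 908 CPM with the mimic and 524 and 541 CPM with pUC19. Ctsd and Npc2, a protease and a cholesterol carrier of the lysosome, rose by 0.86 and 0.69. Of 22 tested interferon-stimulated genes 11 were higher (50%, against 30.9% of all genes tested), 2 lower and 9 not called. Ddx58, the RNA sensor RIG-I, had 102 and 112 CPM with the mimic and 39.3 and 41 CPM with pUC19 (1.41 ± 0.08). The double-stranded RNA-activated kinase gene Eif2ak2 rose by 0.90 and Parp14 by 1.63, while Trim25, the ubiquitin ligase that acts on RIG-I, fell by 0.48. Ifit1, Ifit3, Oas1a, Oas2 and 4 more had too few reads to test, at most 24 over the 4 libraries.

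Metabolic and stress genes leaned downward in different degrees. Of 27 hypoxia and glycolysis genes 20 were lower (74.1%) and 1 higher, with a median of -0.41, the same when Car9, with 0 reads in the mimic libraries and 28 in the pUC19 libraries, was put at its bound of at least 8.91-fold lower (3 counts over the group). Egln3, the oxygen-sensing hydroxylase, had 101 and 97.7 CPM with the mimic and 264 and 228 CPM with pUC19 (-1.31 ± 0.06). The glucose transporter gene Slc2a1 had 71.8 and 76.6 CPM with the mimic and 154 and 154 CPM with pUC19. Pkm, pyruvate kinase, and Vegfa fell by 1.03 and 0.96. Several glycolytic genes have many pseudogenes, so their uniquely mapped counts are uncertain. Of 27 ATF4 amino-acid stress genes 14 were lower (51.9%) and 8 higher. The leucine transporter gene Slc7a5 had 263 and 248 CPM with the mimic and 447 and 394 CPM with pUC19. Ddit3, the stress factor CHOP, instead had 29.7 and 35.8 CPM with the mimic and 8.8 and 13 CPM with pUC19 (1.60 ± 0.13). With the miR-137 mimic Ddit3 had 33.1 and 31.9 CPM, and edgeR's test called no difference between the mimics (log2 fold change 0.0065, adjusted p = 0.9645). Of 27 cholesterol and fatty acid genes 14 were lower (51.9%) and 5 higher (18.5%), against 31.1% and 30.9% of all genes tested. Those counts were less stable, 8 lower without pUC19 replicate 2, and 3 higher without mimic replicate 1 or with the compared libraries alone. The master regulators Srebf2 and Srebf1 fell by 0.89 and 0.75, and Pmvk, a mevalonate pathway kinase, had 321 and 401 CPM with the mimic and 170.1 and 196 CPM with pUC19. Of 18 p53 targets 9 were lower (50%) and 2 higher (11.1%). Phlda3 fell by 1.90 and Zmat3 by 0.54, and Plk2 had 167 and 145 CPM with the mimic and 49 and 54.1 CPM with pUC19.

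Of 18 tested extracellular matrix genes 10 were lower (55.6%) and 3 higher. Lamc1, a laminin chain, had 402 and 389 CPM with the mimic and 1095 and 1043 CPM with pUC19 (-1.43 ± 0.05, adjusted p = 3.51e-14), and Lama5, Col4a2 and Hspg2, all of the basement membrane, fell by 1.25, 1.19 and 1.32. Ptk2, focal adhesion kinase, had 80.4 and 82.8 CPM with the mimic and 159 and 149 CPM with pUC19, and its partner paxillin, Pxn, 20.7 and 22.6 CPM with the mimic and 40.2 and 42.2 CPM with pUC19. Of 10 tested SRF and YAP target genes 4 were higher (40%) and 3 lower (30%), against 30.9% and 31.1% of all genes tested. The 4 became 1 without mimic replicate 2. Lats2, a kinase that restrains YAP, rose by 1.37, the focal adhesion gene Zyx fell by 1.29 and Srf by 0.44, and Axl (0.26) lost its call without mimic replicate 2. Of 18 Polycomb and REST corepressor genes 11 were lower (61.1%) and 3 higher (16.7%), the 3 being 1 without mimic replicate 2. Rcor2, a corepressor that works with REST, had 25.8 and 27.9 CPM with the mimic and 91.9 and 92.3 CPM with pUC19 (-1.78 ± 0.07), and Aebp2 and Sin3a fell by 0.64 and 0.46. Of 24 genes of the miRNA pathway 12 were lower (50%, against 31.1% of all genes tested) and 4 higher. Ago2 and Ago1, which carry miRNAs, fell by 0.37 and 0.68, Tnrc6c and Cnot1, which link them to decay of the message, by 0.58 and 0.49, and Lin28b, which blocks let-7 processing, had 138.3 and 109 CPM with the mimic and 48.5 and 50 CPM with pUC19. Of 13 tested genes reported as miR-137 targets 5 were higher (38.5%) and 6 lower (46.2%), against 30.9% and 31.1% of all genes tested. The transcription factor gene Tcf4 among them fell by 1.15.

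**Figure D4:**
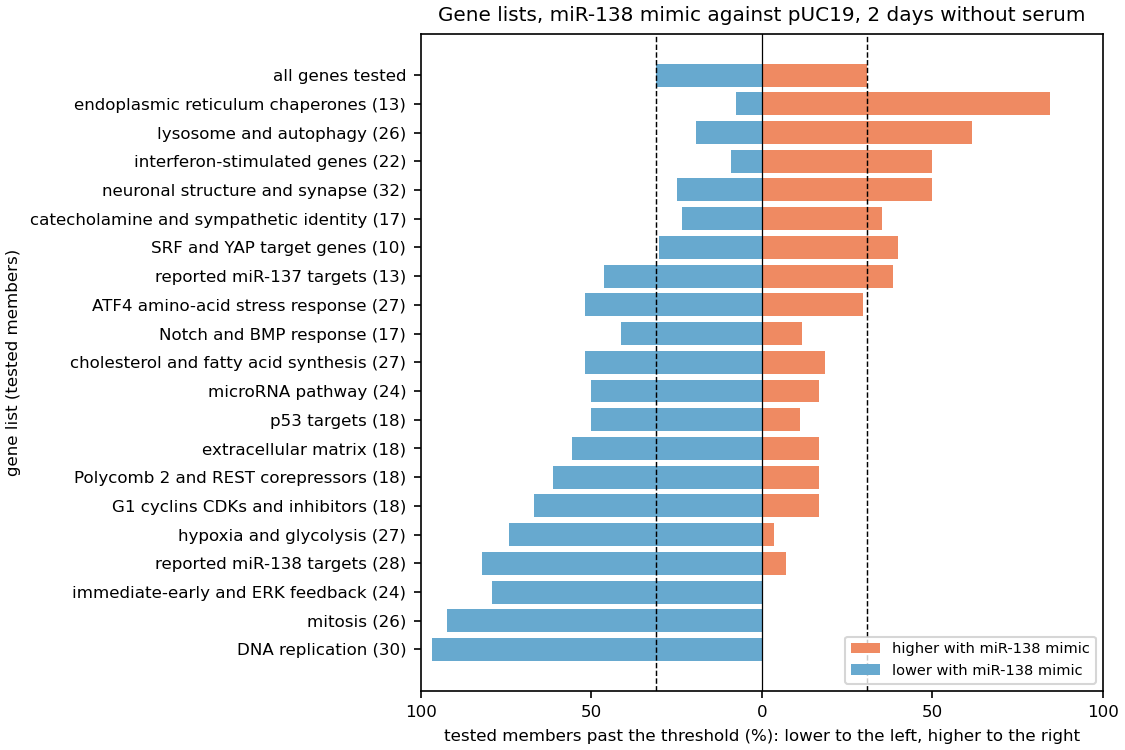
Share of tested members of each described gene list with at least 10 tested that was lower (left) or higher (right) with the miR-138 mimic than with pUC19, without serum, with the number tested in parentheses. The top bar and the dashed lines give the shares over all genes tested, 31.1% lower and 30.9% higher, from which DNA replication (96.7% lower), mitosis (92.3% lower) and endoplasmic reticulum chaperones (84.6% higher) lie farthest.

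The same transfections in serum were read for the same genes. Cells in serum were collected 2 days after transfection and those without serum 4 days after, so medium and time since transfection cannot be told apart. In serum 3631 genes were higher with the mimic (28.7%) and 3458 lower (27.3%). Of the 3914 genes higher without serum 2385 were higher in serum as well (60.9%, and 65.7% of those higher in serum), and of the 3937 lower 2513 were lower in serum (63.8%, and 72.7% of those lower in serum). Opposite calls were rarer, 194 and 179 genes. A test of the difference between the 2 effects (an interaction term in the same fit) called 3522 genes (27.8%). The lists of cell cycle genes and targets were lower in serum as well, though effects on many targets differed in size between media: in serum 30 of 30 replication genes, 25 of 26 mitotic genes and 23 of 28 reported miR-138 targets were lower, and the interaction called 3 of 30, 4 of 26 and 15 of 28. Nfix had 57.9 and 55.9 CPM with the mimic and 248 and 250.2 CPM with pUC19 in serum, and its interaction did not pass the test (0.21, adjusted p = 0.0714), but did without mimic replicate 1 of the cells without serum (0.31, adjusted p = 0.0131). Rhoc fell more in serum, with 46.6 and 45 CPM with the mimic and 108 and 108 CPM with pUC19 (-1.24, interaction 0.83, adjusted p = 4.69e-06), and Ccnd1 less (-0.50, interaction -1.31).

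Other groups turned between the cells without serum and those in serum, which also differ in time since transfection. All 13 endoplasmic reticulum chaperone genes had an interaction past the threshold, each more positive without serum: in serum 12 were lower with the mimic and 0 higher. Some of these calls rested on single libraries: the interaction of Dnajc3 was lost without in-serum mimic replicate 2 (adjusted p = 0.0738). In serum Calr lost its call without mimic replicate 1, mimic replicate 2 or pUC19 replicate 1 (adjusted p = 0.0595, 0.0944 and 0.324), and Sdf2l1, another chaperone partner, without pUC19 replicate 2 (adjusted p = 0.066). Hspa5 had 1187 and 1151 CPM with the mimic and 1869.8 and 1779 CPM with pUC19 in serum (-0.64), and the interaction was 1.10 (adjusted p = 1.18e-08). Ddit3 likewise was lower with the mimic than with pUC19 in serum (34.1 and 34.2 CPM against 60.6 and 62.2 CPM) and higher without. Untransfected cells labelled DKO had 4.9 and 5.75 CPM of Ddit3 in serum, so both transfected groups lay above them there. Of the 27 hypoxia and glycolysis genes 16 had a more negative effect without serum by the interaction and 0 a more positive one, and in serum 6 were lower and 7 higher. Egln3 had 133 and 129.5 CPM with the mimic and 149 and 139.7 CPM with pUC19 in serum, a small difference there near the threshold (-0.14, adjusted p = 0.0644 by edgeR, but 0.0337 with a replicate block, 0.0349 with RLE size factors and 0.0497 by DESeq2), with an interaction of -1.17. Of the 27 cholesterol and fatty acid genes 13 were higher and 5 lower in serum. Of the 32 neuronal genes 7 were higher and 13 lower in serum, with Ncam1 at 77.7 and 78.9 CPM with the mimic and 93.1 and 94.7 CPM with pUC19 there (interaction 1.68). The 6 genes with the lowest adjusted p of the interaction were Slc40a1, Glce, Parvb, Mycn, Bace2 and Rgs4. Slc40a1 in serum had 37.8 and 40.9 CPM with the mimic and 24.6 and 20.9 CPM with pUC19, a rise of 0.78 beside that of 5.34 without serum. Mycn, the neuroblastoma oncogene, had 39.8 and 42 CPM with the mimic and 103 and 114 CPM with pUC19 without serum, but 104 and 107 CPM with the mimic and 69.5 and 74.5 CPM with pUC19 in serum. Rgs4, which shortens G protein signals, turned the same way (-0.84 without serum, 1.48 in serum). Glce, an enzyme of heparan sulfate, Parvb, a focal adhesion protein, and Bace2, a protease, turned the other way, with 1.27, 1.48 and 1.11 without serum and -0.45, -0.73 and -0.26 in serum.

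**Figure D5:**
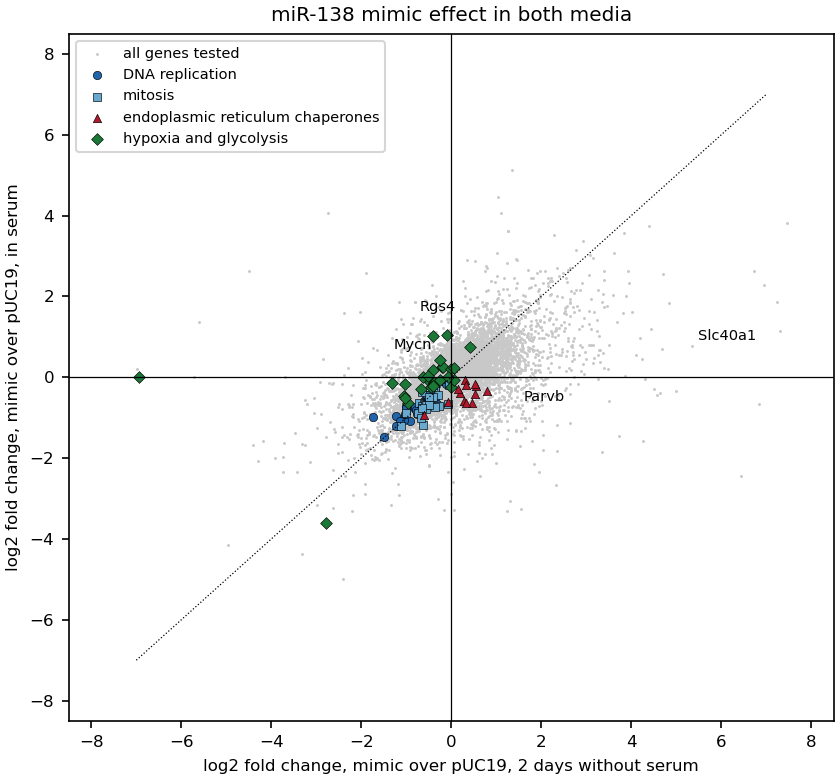
Log2 fold change of miR-138 mimic over pUC19 without serum (horizontal) against the same in serum (vertical) for all 12655 genes tested, with 4 gene lists marked and the dotted line at equal values. DNA replication and mitosis genes lie in the lower left, endoplasmic reticulum chaperones in the lower right, and Slc40a1 far to the right. The diamond at the left edge is Car9, which had 0 reads with the mimic.

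Against the miR-137 mimic, a second small RNA given in the same way, the miR-138 mimic left 3894 genes higher (30.8%) and 3900 lower (30.8%) without serum. These comparisons share the miR-138 libraries, so their values are set side by side with no count of overlap. DNA replication genes were lower with miR-138 than with miR-137 in 25 of 30 cases and mitotic genes in 23 of 26, and reported miR-138 targets in 23 of 28. Reported miR-137 targets were higher with miR-138 in 8 of 13 cases and lower in 3. Slc40a1, at 429 and 381 CPM with the miR-138 mimic, had 5.74 and 6.9 CPM with the miR-137 mimic, which lay below its pUC19 level (-0.66). Ddc had 0.543 and 0.363 CPM with the miR-137 mimic, below pUC19, so that it moved in opposite directions with the 2 mimics. Tubb3 did so as well, with 237 and 252 CPM with the miR-137 mimic. Cdkn1a had 90.8 and 105 CPM with the miR-137 mimic, above its pUC19 level, whereas with miR-138 it lay below. Both mimics left the chaperone genes Hspa5 and Calr above pUC19: Hspa5 had 675 and 692 CPM and Calr 1219.8 and 1271 CPM with the miR-137 mimic, and of the 13 genes 2 were higher with miR-138, 5 lower and 6 not called. Sstr2, at 17.3 and 15.9 CPM with the miR-138 mimic, had 12.3 and 10.8 CPM with the miR-137 mimic and 2.83 and 2.38 CPM with pUC19.

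Over all genes the mimic was set beside the cells labelled DKO, from libraries of another experiment and kit that share none with it. Of the 12388 genes tested in both, 1507 were lower with the mimic and higher in cells labelled DKO than in WT cells, which is 38.5% of those lower with the mimic and 51.2% of those higher with the label. The mirror class, higher with the mimic and lower with the label, held 1162 genes (30.3% and 41.6%). Over all genes tested in each experiment, 21.9% were higher and 23% lower with the label. With the mimic 30.9% were higher and 31.1% lower. Calls in the same direction were fewer, with 560 genes higher and 697 lower in both. Among the 546 genes at least 2-fold lower with the mimic, 238 were higher and 117 lower in cells labelled DKO. Among the 761 at least 2-fold higher, 194 were lower and 72 higher, and the 194 lie near the 23% lower over all genes tested there. Slc40a1 was higher in both, at 2.44 in cells labelled DKO, with 23.6 and 26.8 CPM there and 3.85 and 5.37 CPM in WT cells. The 2 experiments also differ in plating, library kit, read length and days without serum, and the part of these was not tested.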

How the data were processed

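Polyadenylated RNA from CAD cells was sequenced as stranded libraries with single-end 50 bp reads, per the labels' protocols. The authors deposited read counts per gene, made with STAR on mm9 per the submitters' processing notes; the STAR version is not given in the sources used here. The stranded counts in column 4 were used, and the opposite strand, column 3, held 3.24 to 3.67% of the reads of both columns together. Multimapped reads, 16.4 to 18.5% of reads, stand in a row that names no gene and were left out of library sizes and tests, as were unmapped, ambiguous and unassigned reads, 27.6 to 32.2% of all reads together. This lowers counts of genes with close copies. Of 37310 gene rows 32620 (87.4%) were given a symbol. The 14 libraries of the mimic experiment, 12740836 to 25582125 reads in genes each, were fitted together in 7 groups with edgeR 4.0.16 in R 4.3.3 (TMM scaling, quasi-likelihood test, filter at a minimum count of 10 and a total of 15), with Benjamini-Hochberg adjustment over all genes tested and a threshold of 0.05. Cells labelled DKO and WT came from the first experiment, fitted apart. The named genes are the 12 with the largest change in each direction among called genes with a mean of at least 5 CPM whose groups do not overlap, up to 4 called genes of each list by lowest adjusted p, and the 6 with the lowest adjusted p of the interaction, with a short fixed set of target, marker and miRNA genes. Fos, Egr1, Jund, Rfc2, Kdm5b, Limk1, Yap1, Hand2, Phox2a and members at 0 or few reads fall outside it and were named after their values were seen. Some items that the rule names are not reported here. Members of lists, the lists and the tests were chosen with earlier results of these data known. The fit was tested on simulated counts. Replicate numbers are not known to pair the libraries. The deviations of replicate 1 from its group mean correlated at 0.017 between the 2 compared groups, and at -0.187 to 0.096 over all pairs of groups. Alternatives were DESeq2 1.42.0, other size factors, no filter, unstranded counts, the compared libraries alone, a replicate block, a threshold of 0.01 and leaving out each library. Seed matches in transcripts were not counted, because no transcript sequence was used here. Python 3.11.15 with pandas 2.3.3 and matplotlib 3.10.9 read the RefSeq sequences and drew the figures. Intervals of counting error are not given, since the spread between libraries exceeds them.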

Additional observations from a re-analysis of the deposited data

Results flagged for a closer look

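Of 122 named or marker genes tested, 69 had an effect of the miR-138 mimic that differed between cells without serum and cells in serum. The test was the interaction term (edgeR, adjusted p below the threshold), which called 3522 of all 12655 genes tested (27.8%). Some of the 122 were picked by a low adjusted p of that term or by large effects without serum, so the 69 reflects in part that choice. The 30 where the difference was at least 2-fold are given here, as the log2 fold change without serum minus that in serum. A more positive effect without serum was seen for Myo7a (5.01), Slc40a1 (4.56), mt-Tt (2.89), Elfn1 (2.81), Itpka (2.62), Ddit3 (2.44), Scn3a (2.29), Parvb (2.21), Ddc (2.16), Stmn2 (2.05), Plk2 (2.00), Hist1h1c (1.82), Hist1h2bc (1.75), Glce (1.72), Ncam1 (1.68), Bace2 (1.37), Cdk15 (1.30), Aqp4 (1.22) and Hspa5 (1.10). A more negative effect without serum was seen for Spry1 (-1.02), Id1 (-1.09), Egln3 (-1.17), Ccnd1 (-1.31), Hes1 (-1.48), Sertad4 (-1.56), Mycn (-1.97), Kcnt1 (-2.09), Rgs4 (-2.32), Tll2 (-2.50) and Upp1 (-2.55). Myo7a, Tll2 and Kcnt1 were near absent in serum, so the size of their difference is uncertain. Myo7a had 0.512 and 0.111 CPM with the mimic there and 0.382 and 0.471 CPM with pUC19. Tll2 had 0.354 and 0.519 CPM against 0.546 and 0.393 CPM, and Kcnt1 0.276 and 0.259 CPM against 0.71 and 1.02 CPM. The difference for Myo7a was 6.40 without the in-serum mimic replicate 1 and 4.27 without replicate 2. The call of mt-Tt was lost without mimic replicate 1 of the cells without serum (1.56) and without pUC19 replicate 1 in serum (2.72), and without replicate 2 of the mimic it stood at 3.51. Single left-out libraries also ended the calls of Kcnt1 (-2.06), Cdk15 (1.17) and Aqp4 (0.93 and 1.09, each without 1 in-serum library). Most of the 12 largest rises stand in the first group. They were picked by their effect without serum, which is a term of this difference, so their place there follows in part from that choice. Since cells in serum were sampled earlier after transfection, medium and time cannot be told apart.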

How the results depend on the processing

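The count of genes called for the miR-138 mimic against pUC19 without serum, 7851, was 6803 with DESeq2 (3263 higher, 3540 lower), 7845 with RLE size factors, 7808 with no filter, 7801 with unstranded counts, 7179 with the 4 compared libraries alone, 6446 at a threshold of 0.01, and 6983 to 7152 when 1 of the 4 libraries was left out. Of the 6803 genes called by DESeq2, 6771 were called in the same direction by edgeR. With the replicate number as a block it was 8012, and the numbers are not known to pair the libraries. In serum the count of 7089 was 6015 with DESeq2, 7328 with the replicate block and 5888 to 6175 with 1 library left out, and the interaction count of 3522 was 2665 with DESeq2, 3903 with the replicate block and 2753 to 3256 with 1 library left out. Against the miR-137 mimic, 7794 genes became 6752 with DESeq2 and 7970 with the replicate block, and for cells labelled DKO 6123 became 5785 and 6391. Each of these counts stayed within 1.5 times. Of 1341 values of named genes in the main comparison, 1339 kept their direction and side of the threshold. Axl lost its call without mimic replicate 2 (0.16), and 0 values reversed. The lower count of the glial list was 1 in place of 0 without pUC19 replicate 1, and the other list counts that moved by over 1.5 times are given beside their lists. With 2 libraries a group, small differences of genes with few reads are not resolved. The planned description of seed matches was not run, as no transcript sequence was used here.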

Other observations

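Replication-dependent and variant histone genes, a group singled out after its values were seen, included several that rose with the mimic while DNA replication genes fell. Of 56 gene rows with symbols starting Hist1 to Hist4 only 15 had enough reads to be tested, and many of these were near 0 with pUC19 and passed the filter through libraries where they are high, so no count or median over them is given. Hist1h1d, a linker histone, averaged 7.4 ± 0.233 CPM with the mimic and 0.474 ± 0.00267 CPM with pUC19 (SD, n = 2 each), a log2 fold change of 3.94. Hist3h2a averaged 10.3 ± 0.0949 CPM with the mimic and 1.66 ± 0.255 CPM with pUC19 (SD, n = 2 each), a log2 fold change of 2.64. Most histone messages carry no long poly(A) tail and many have close copies, so polyA-selected, uniquely mapped counts hold only part of them, and whether tailing or transcript level differed was not tested.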
